A study of Mus musculus with 16 samples.

Results

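The stefins and cystatins are small proteins that block cysteine proteases of the papain family. They were followed across macrophages sorted from tumors of the pancreas and from normal pancreas of mice. Genes were chosen by name: array names starting with Stfa or Csta, a few older names of the stefin A cluster on chromosome 16, and Cstb, Cst3 and Cst7. This found 14 of the 31044 genes on the array. Among them Cstad, a T cell activation gene and no cystatin, matches in name only and was set aside. This left 13 stefins and cystatins, 10 of them in the stefin A cluster. Csta2 was found through its RefSeq accession, since the array calls it 2010005H15Rik. The array likewise calls Cstdc4 Gm5483, Csta3 Gm5416, Cstdc5 BC100530 and Cstdc6 BC117090. The set was selected on earlier results of these same arrays, in which Cstdc4 and Csta2 differed with tissue and with YFP. Their values, and those of the near-identical relatives in the cluster, are therefore given as a description with no p-value. Cstb, Cst3 and Cst7 are read with the adjusted p of a fit over all genes.

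The series holds 16 one-colour Agilent arrays of macrophages sorted by flow cytometry from mice in which Cre under Flt3 control switches on YFP, so that YFP+ cells descend from cells that had expressed Flt3, a receptor of early blood progenitors. YFP+ and YFP- cells of tumors have 5 arrays each and those of normal pancreas 3 each, all from female mice on a C57/B6 background, 8 to 10 weeks old, with no genotype stated per sample. The design text names wild-type mice, reporter mice and KPC mice, which develop pancreatic cancer, and the protocol for treatment speaks of implanted tumors, so the tumor model is unclear. The number in each title was taken to be the mouse, which the labels do not state, so p-values measure the spread between these samples. A value of 0 on the scale used throughout is the 75th percentile of an array's log2 processed signal.

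Stefins act in the cytosol and carry no secretion signal. Stefin A has a single gene in humans, while mice carry a cluster of near-identical stefin A genes that are best known from neutrophils and other myeloid cells. Stefin B (Cstb) is present in most cells. Cystatin C (Cst3) is secreted by nearly all cells and is abundant in macrophages, and cystatin F (Cst7) is made by leukocytes and is directed to their lysosomes. Their targets are the cysteine cathepsins of the lysosome, such as cathepsins B, L, S and K, and for some cystatins also legumain.

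Some probes of the cluster share long runs of bases. Between member probes the longest runs were 25, 22 and 14 bases, and all other pairs shared 9 or fewer. Each probe is 60 bases long, and 1 probe measures each gene. Positions are those of the array files, on build mm9 and chromosome 16: the Cstdc4 probe lies at chr16:36188043-36188102 on the plus strand, Stfa3 at chr16:36450693-36450752 on the minus strand, Csta2 at chr16:36257452-36257511 on the plus strand, Cstdc5 at chr16:36359525-36359584 on the minus strand and Csta3 at chr16:36217755-36217814 on the plus strand. The files give no position for the Stfa2l1 probe and list the accessions of both Stfa2l1 and Stfa2 for it. Capitals mark the longest run that a probe shares with the probe it is paired with. Cstdc4 and Stfa3 share 22 bases, and no other probe on the array shares a longer run with either.
Cstdc4: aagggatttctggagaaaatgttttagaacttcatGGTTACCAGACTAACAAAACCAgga
Stfa3: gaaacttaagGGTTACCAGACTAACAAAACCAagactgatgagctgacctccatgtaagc

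Csta2 and Cstdc5 share 25 bases, at bases 1 to 25 of the Csta2 probe and 33 to 57 of the Cstdc5 probe. The 30 bases of each probe around that run are shown, because these genes are the pair whose signals are most alike across the arrays.
Csta2: CTTCTAAGCAGCAAATTCTAAAGTGtcctg
Cstdc5: taCTTCTAAGCAGCAAATTCTAAAGTGacc

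The Stfa2l1 probe shares 26 bases with a probe outside the chosen set that carries only a transcript name, ENSMUST00000077110, and that the files place at chr16:36136075-36137745, between the probes of Csta1 and Cstdc4. In the best local alignment of these probes 46 of 49 bases are identical. Csta3, shown with its 9-base run in common with Stfa2l1, is the stefin whose signal did not follow the others.
Stfa2l1: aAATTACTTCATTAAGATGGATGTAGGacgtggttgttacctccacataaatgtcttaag
ENSMUST00000077110: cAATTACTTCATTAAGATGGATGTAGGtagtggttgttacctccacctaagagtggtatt
Csta3: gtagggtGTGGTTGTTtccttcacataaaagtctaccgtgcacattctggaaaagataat

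A stefin A value is the signal of a probe and may hold RNA of several members. How much each probe takes from its relatives was not tested. The probes of Cstb, Cst3, Cst7 and Stfa2 share no run of 14 bases or more with any other probe on the array. Runs were compared between probes and not with the RNA of relatives. This therefore does not show that a probe reads its own gene alone. Of the 13 genes 10 passed the filter on dim probes, which asked that 3 of the 16 arrays or more be well above background, and 7 of the 10 stefin A cluster genes did. Csta1 was above background on 1 array, Stfa1 on 2 and Cstdc6 on 2, and these genes entered no test.

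Depth on an array is signal over background. The share of spots well above background was 64.9% to 75.4% per array, 0 spots were saturated, and the 75th percentile ran from 2175 to 3409 intensity units. All 12 macrophage markers were above background on every array, with a mean level between 3.72 and 4.71. The normal YFP+ array of mouse 23912 stood apart from the others of its group. Its S100a8 and S100a9 levels, of a calcium-binding protein pair abundant in neutrophils, were -0.35 and 1.18, against -4.11 and -2.63 in mouse 23916 and -7.16 and -6.68 in mouse 23917. The mean of its T and NK cell markers was 0.32, against -1.80 and -2.49, so results for stefins and cystatins that rest on it are given without it as well. Acinar cell markers were high in the normal samples (array means of 4.89 to 6.46) and low in tumor samples (-2.14 to 0.10), and their part in the tissue differences was not tested. In bulk samples, fewer cells of a type and less RNA per cell cannot be told apart.

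Cstdc4 was high in both tumor populations, intermediate in normal YFP+ cells and below background in normal YFP- cells. Its log2 levels in the 5 tumor YFP+ arrays were -0.17, -0.16, -0.14, -0.09 and 0.88. The tumor YFP- arrays read 0.20, 0.56, 0.79, 0.88 and 1.31. Both tumor groups overlapped each other and lay above every normal array. Normal YFP+ arrays read -3.68, -3.37 and -1.96, all well above background. Normal YFP- arrays read -6.64, -5.75 and -5.54, none of them well above background, and did not overlap the normal YFP+ arrays. The order of the group means was thus tumor YFP- (0.75 ± 0.41, SD, n = 5), tumor YFP+ (0.06 ± 0.46, n = 5), normal YFP+ (-3.0 ± 0.92, n = 3) and normal YFP- (-5.98 ± 0.58, n = 3). Only the arrays of the first 2 overlapped, which is a description, since Cstdc4 was chosen on these values.

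**Figure D1:**
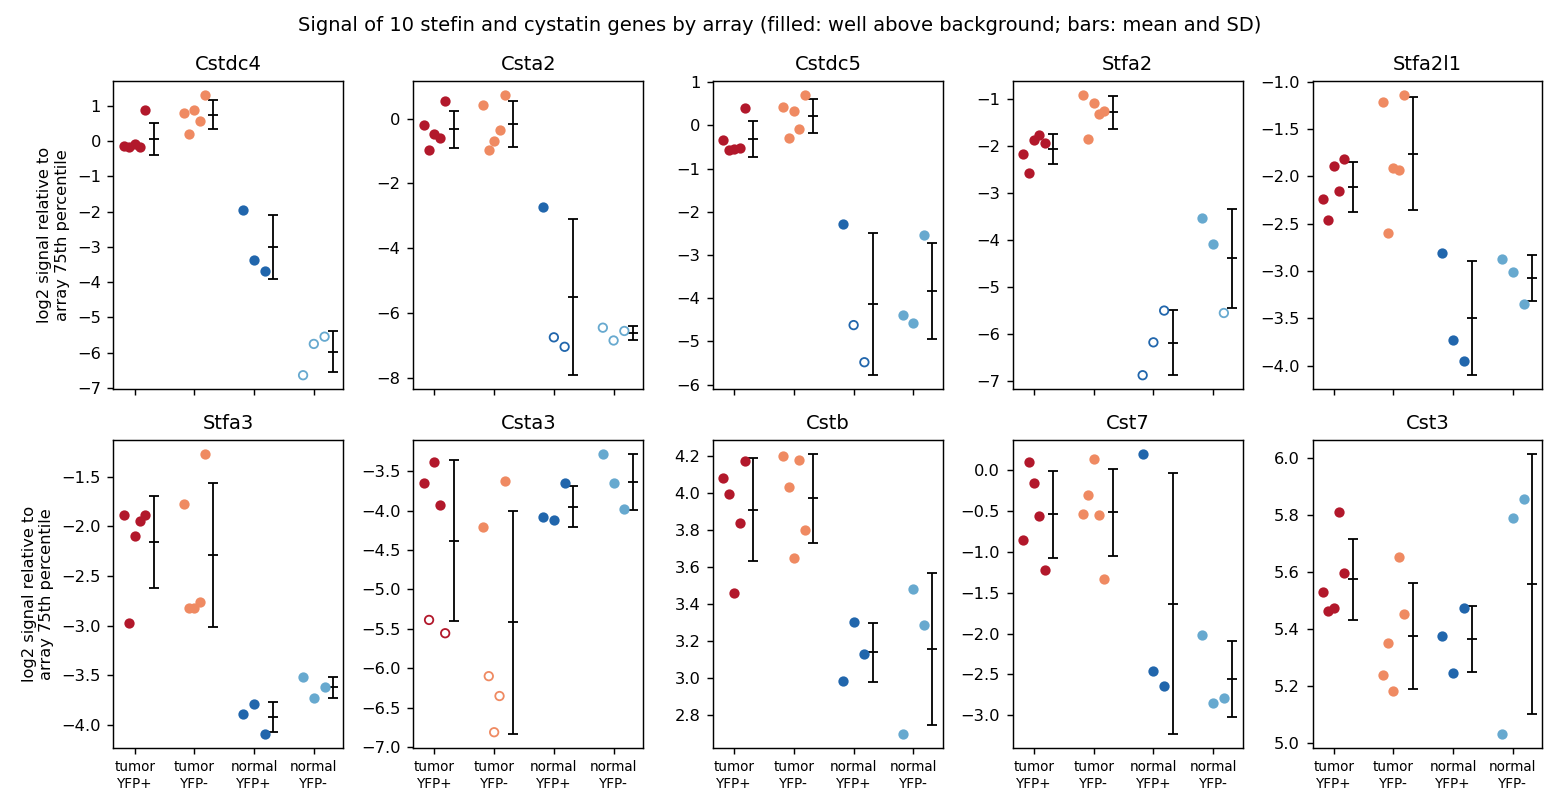
Log2 signal relative to each array's 75th percentile (y axis) of the 10 stefin and cystatin genes that passed the filter, by group (x axis), with 1 point per array, filled where well above background; bars give the mean and SD. Cstdc4 lies between -0.17 and 1.31 in the 10 tumor arrays and at or below -1.96 in the 6 normal arrays, while Cst3 lies between 5.03 and 5.85 in all 16.

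Tumor YFP+ exceeded normal YFP+ samples in Cstdc4 by 3.06 ± 0.39 (SE) on the log2 scale, an 8.36-fold difference, and by 3.59 without the normal YFP+ array of mouse 23912. In YFP- cells the measured difference was 6.73 ± 0.39. Because the normal arrays were below background there, it is given as at least 41.3-fold, a bound that sets each dim array no lower than the lowest signal well above background on it. Arrays of 1 slide can be compared with each other. For each population 3 slides held both tissues, not the same 3 for YFP+ and YFP-. On these the difference was 2.83 to 3.59 in YFP+ cells and 5.74 to 7.95 in YFP- cells. Another background correction (normexp) made both smaller, at 2.32 and 4.04, the latter under the log2 bound of 5.37. Every fold given as at least a value is thus a bound under the main background correction only. Normexp put other values given below under their bounds too.

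Csta2 was near the 75th percentile in tumor samples and below background in all normal samples but 1. It is measured by 10 spots per array, of which 7 to 10 were used, with an SD between spots of 0.03 to 0.12 on tumor arrays and 0.12 to 0.65 on normal arrays. Tumor YFP+ arrays read -0.97, -0.59, -0.47, -0.18 and 0.54, and tumor YFP- arrays -0.95, -0.68, -0.35, 0.43 and 0.73. Normal YFP+ arrays read -7.03, -6.74 and -2.72, the last of them mouse 23912 and the only normal array well above background. Normal YFP- arrays read -6.84, -6.55 and -6.44. The tissues did not overlap in either population, while YFP+ and YFP- overlapped within each tissue. Tumor exceeded normal pancreas by 5.17 ± 0.76 in YFP+ cells, where 2 of the 3 normal arrays were below background. With these set at the lowest signal well above background on each, the difference was 3.76 (13.5-fold). Without the array of mouse 23912 the measured difference was 6.56, given as at least 21.7-fold. In YFP- cells the difference was 6.45 ± 0.76, given as at least 22-fold. Under normexp the values were 2.91 and 3.51, which moves them by more than 1.5 times.

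Cstdc5 and Stfa2 were also higher in tumor samples. Cstdc5, a cluster member with the cystatin domain, read -0.58 to 0.39 in tumor YFP+ (median -0.54) and -0.29 to 0.70 in tumor YFP- arrays (median 0.32). Its normal YFP+ arrays read -5.48, -4.62 and -2.29, of which only that of mouse 23912 was above background, and its normal YFP- arrays -4.57, -4.39 and -2.55. The tissue difference was 3.81 ± 0.60 in YFP+ cells, or 3.61 (12.2-fold) with the dim arrays at their lowest signal well above background. Without the array of mouse 23912 the measured difference was 4.73, given as at least 21.5-fold. In YFP- cells it was 4.05 ± 0.60 (16.6-fold). Under normexp the values were 2.47 and 2.86.

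In Stfa2, a stefin A gene long known from mouse granulocytes, the normal groups stood in the other order from that of Cstdc4. Its tumor YFP+ arrays read -2.57, -2.17, -1.93, -1.88 and -1.77 and its tumor YFP- arrays -1.85, -1.32, -1.25, -1.09 and -0.91. The normal YFP+ arrays (-6.87, -6.17 and -5.50) were all below background, and 2 of the 3 normal YFP- arrays (-5.55, -4.09 and -3.52) were above it. Tumor thus exceeded normal pancreas by at least 6.37-fold in YFP+ cells (measured difference 4.11 ± 0.40), and by 3.10 ± 0.40 in YFP- cells, or 2.71 (6.54-fold) with the dim array at its lowest signal well above background. Under normexp the values were 1.69 and 1.80.

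Stfa3 and Stfa2l1 moved less and were above background on all 16 arrays. Stfa3 lay between -2.98 and -1.27 on tumor arrays and between -4.09 and -3.52 on normal ones, without overlap, a difference of 1.77 ± 0.35 in YFP+ and 1.33 ± 0.35 in YFP- cells. Stfa2l1 was higher in tumor by 1.38 ± 0.33 in YFP+ cells, with normal arrays at -3.95 to -2.81 and tumor arrays at -2.46 to -1.82. In YFP- cells the difference was 1.32 ± 0.33, with normal arrays at -3.35 to -2.87 and tumor arrays at -2.60 to -1.14. The related probe ENSMUST00000077110 had mean levels in tumor of -2.70 ± 0.30 (YFP+, SD, n = 5) and -2.48 ± 0.57 (YFP-, n = 5), and in normal pancreas of -4.03 ± 0.38 (YFP+, n = 3) and -3.25 ± 0.36 (YFP-, n = 3), a similar order to that of Stfa2l1. Under normexp the differences in YFP+ and YFP- cells were 1.04 and 0.97 for Stfa3, and 0.79 and 1.04 for Stfa2l1.

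Csta3 did not follow them. Its normal arrays read -4.13 to -3.28 and all 6 were above background, while 3 of 5 tumor YFP+ and 2 of 5 tumor YFP- arrays were. The tumor arrays spread from -6.81 to -3.38 and overlapped the normal ones. This spread went with the slide: tumor arrays on slides 1 and 2 were all below background, and those on slides 3 and 4 all above it. The tissue difference was -0.43 ± 0.69 in YFP+ and -1.78 ± 0.69 in YFP- cells. Under normexp the latter shrank to -0.05. Within slides the tissue difference ran from -1.48 to 0.27 in YFP+ and from -2.12 to -0.35 in YFP- cells. The part of the slide was not tested.

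The genes below the filter are given by range. Csta1 read -7.12 to -6.44 on 15 arrays and -3.66 on the normal YFP+ array of mouse 23912, its only array above background. Stfa1 was above background only in 2 tumor YFP- arrays (-4.11 and -3.64). Cstdc6 was above it on 1 tumor YFP+ array (-4.31) and 1 normal YFP- array (-3.57). None of these has a tissue or YFP pattern that can be read.

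In the whole fit, 12.1% of the 24275 genes tested passed an adjusted p of 0.05 (limma, Benjamini-Hochberg) between tumor and normal pancreas in YFP+ cells, and 15.8% did in YFP- cells. Of the 10 stefins and cystatins tested 7 were higher in tumor and 0 lower in YFP+ cells, and 8 were higher and 0 lower in YFP- cells. The median log2 difference of the 10 was 1.58 and 1.68, beside -0.045 and -0.16 over all genes, and both medians are the same with dim groups set at their bound. Nothing is read from these counts, since the stefin A genes were chosen on this contrast. Without the normal YFP+ array of mouse 23912 the counts were 7 and 8. In YFP- cells 5 passed without mouse 23916 and 4 without mouse 23917.

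**Figure D2:**
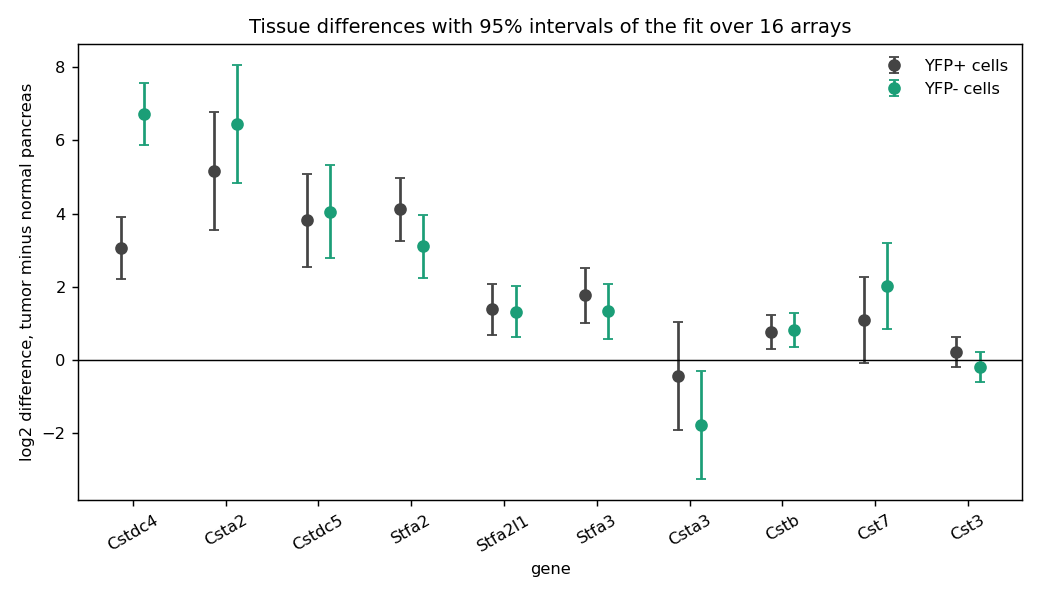
Log2 difference of tumor minus normal pancreas (y axis) in YFP+ and YFP- cells for each of 10 genes (x axis); points are the fitted differences over 16 arrays and bars their 95% intervals. Csta2 and Cstdc4 have the highest values in YFP- cells (6.45 and 6.73), the intervals of Cst3 straddle 0, and that of Csta3 lies below 0 in YFP- cells and straddles it in YFP+ cells.

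Upstream sequence is shown for Cstdc4, Cstdc5 and Csta2, the stefin A genes whose signals were most alike across the arrays. RefSeq promoters (GRCm38.p6, 250 bases before to 50 after the start; 11 of the 13 genes matched) were used, and these positions are not on the build of the probes. The 80 bases before each start are shown, at chr16:36184132-36184211 on the plus strand for Cstdc4, chr16:36367571-36367650 on the minus strand for Cstdc5 and chr16:36221482-36221561 on the plus strand for Csta2. Capitals mark the 32 bases before the start that belong to the longest run, of 33 bases, shared by Cstdc4 and Cstdc5.
Cstdc4: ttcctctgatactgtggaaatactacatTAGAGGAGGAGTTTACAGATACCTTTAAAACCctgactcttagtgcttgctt
Cstdc5: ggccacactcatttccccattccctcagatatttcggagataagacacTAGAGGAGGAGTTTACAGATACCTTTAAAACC
Csta2: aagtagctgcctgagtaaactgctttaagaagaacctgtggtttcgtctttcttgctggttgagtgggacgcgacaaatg

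That 32-base run occurs in 3 of 32851 promoters of the table, those of Cstdc4, Cstdc5 and Cstdc3, another gene of the cluster. Over the 300 bases, Cstdc4 and Cstdc5 were 73.3% identical in a global alignment, and Csta2 was 46.7% identical to Cstdc4 and 47.7% to Cstdc5. Cstdc5 was 89.7% identical to Stfa1, and Stfa2 91.7% to Stfa2l1. Motifs of STAT, C/EBP, HIF, AP-1, PU.1 and NF-kB were searched on both strands, and the TATA box on the gene's strand. The STAT motif TTCNNNGAA was found in Cstdc4 only, 128 bases before the start, and is held by 8.30% of all promoters. The HIF motif ACGTG was found in Cstdc4 (at -223 from the start) and Cstdc5 (at -152), and is held by 19.6%. The AP-1 motif TGANTCA was found in Cst7 and Stfa3, and is held by 7.81%. The PU.1, NF-kB and TATA box motifs were found in no member. The C/EBP motif TTGCNNAA was found in Cst7, Csta3, Stfa1 and Cstdc5, and is held by 10.8% of all promoters. These are matches of letters and not shown to be sites.

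Stefin B, the stefin of most cell types, was higher in tumor macrophages of both populations by less than 2-fold. Cstb read 3.46, 3.84, 4.00, 4.08 and 4.17 in tumor YFP+ and 3.65, 3.80, 4.04, 4.18 and 4.20 in tumor YFP- arrays. The normal YFP+ arrays read 2.99, 3.13 and 3.30, and the normal YFP- arrays 2.70, 3.29 and 3.48. In both populations each tumor array lay above each normal array. The difference was 0.77 ± 0.22 (SE) in YFP+ cells (1.71-fold, adjusted p = 0.0300, limma) and 0.81 ± 0.22 in YFP- cells (1.76-fold, adjusted p = 0.0189). Within slides it was 0.33 to 1.19 in YFP+ and 0.72 to 1.1 in YFP- cells. In YFP+ cells the call was lost under quantile normalization (0.56, adjusted p = 0.0942), in the deposited values (0.56, adjusted p = 0.0970), without any of 7 of the 8 mice in turn (the exception was mouse 23550; adjusted p-values of up to 0.107) and without the normal YFP+ array of mouse 23912 (adjusted p = 0.119). In YFP- cells it was lost without mouse 23551 (adjusted p = 0.0564), 23912 (0.59, adjusted p = 0.104) or 23917 (adjusted p = 0.0538).

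Cystatin F, the cystatin of leukocyte lysosomes, was higher in tumor YFP- than in normal YFP- cells. Cst7 read -1.34, -0.55, -0.53, -0.30 and 0.13 in tumor YFP- arrays and -2.85, -2.79 and -2.01 in normal YFP- arrays, without overlap. The difference was 2.03 ± 0.55 (4.10-fold, adjusted p = 0.0207, limma). It was lost with the slide as a block (1.97, adjusted p = 0.0548) and without mouse 23550, 23916 or 23917 (adjusted p = 0.0585, 0.0872 and 0.0658).

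In YFP+ cells Cst7 turned on 1 array. Tumor arrays read -1.23, -0.85, -0.56, -0.16 and 0.11, and normal arrays -2.64, -2.46 and 0.21, the last from mouse 23912, which also stood apart in its neutrophil and T and NK cell markers. The difference was 1.1 ± 0.55 (adjusted p = 0.247, limma), and 2.01 (adjusted p = 0.00596) without that array. On the slide with the array of mouse 23912 tumor was lower by 1.43, and on the other slides higher by 2.48 and 2.57. The interval of the difference over all arrays ran from -0.08 to 2.27.

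Cystatin C, the secreted inhibitor abundant in macrophages, showed no difference that passed the test. Cst3 read 5.46 to 5.81 in tumor YFP+ (median 5.53), 5.18 to 5.65 in tumor YFP- (median 5.35), 5.24, 5.37 and 5.47 in normal YFP+ and 5.03, 5.79 and 5.85 in normal YFP- arrays. All 4 groups overlapped. The tissue difference had a 95% interval of -0.20 to 0.62 in YFP+ cells (adjusted p = 0.588, limma) and of -0.59 to 0.23 in YFP- cells (adjusted p = 0.540). Changes up to these bounds remain possible.

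Between YFP+ and YFP- cells of the tumor, 2.39% of all genes passed the test, and 0 of the 10 stefins and cystatins did in limma. At an unadjusted p under 0.05, 2502 genes passed. With normexp, 1 of 11 other settings, 1 passed, Stfa2, which was lower in YFP+ cells by 0.65. Stfa2 is a relative of the chosen genes, so nothing is read from this call. Within mice, Cstdc4 was lower in YFP+ than in YFP- cells in 5 of 5 tumor mice, by 0.36 to 0.97. Stfa2 was lower in 5 of 5, by 0.45 to 1.25, and Cstdc5 in 5 of 5, by 0.29 to 0.86. Csta2 was lower in 4 of 5, and its difference over groups was -0.17 ± 0.65 (SE). On 1 of the 4 slides Cstdc4 and Cstdc5 stood the other way, with YFP+ higher by 0.68 in each.

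Neither Cstb nor Cst7 passed the test between the tumor populations. The interval of the difference was -0.46 to 0.34 for Cstb (adjusted p = 0.958, limma) and -1.04 to 1.0 for Cst7 (adjusted p = 0.996). Cst3 was higher in the YFP+ cells of all 5 tumor mice, by 0.11 to 0.29, and its difference over groups, 0.20 ± 0.17, did not pass (adjusted p = 0.792, limma).

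**Figure D3:**
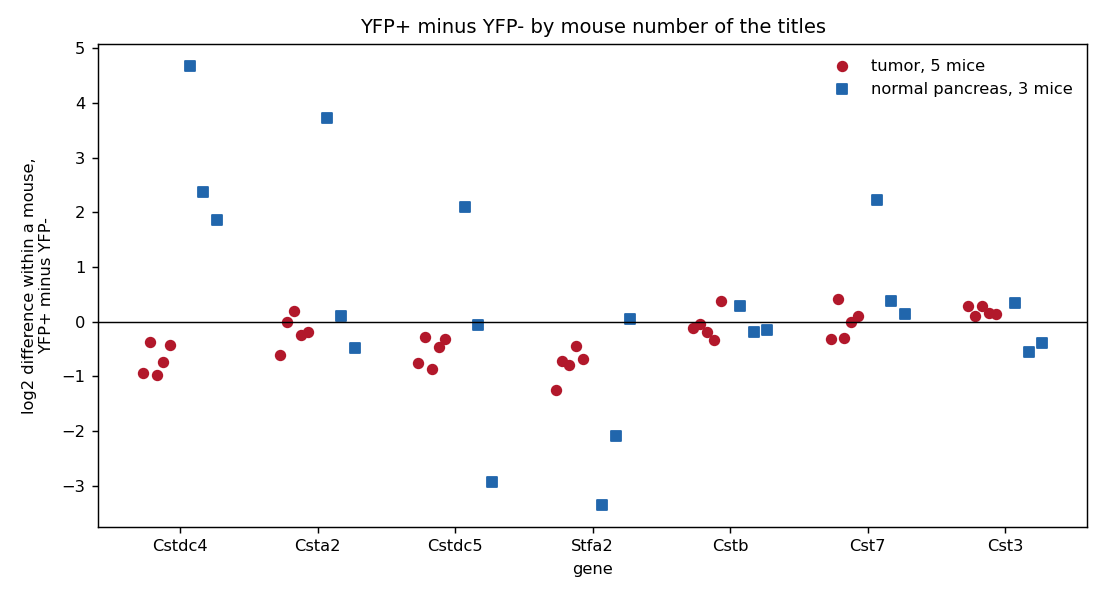
Log2 signal of YFP+ minus YFP- cells of the same mouse number (y axis) for 7 genes (x axis), with 1 point per mouse: 5 tumor mice (circles) and 3 mice with normal pancreas (squares). Cstdc4 lies below 0 in all 5 tumor mice and at 1.87, 2.38 and 4.68 in the normal mice.

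In normal pancreas 0.0206% of all genes, 5 in number, passed between YFP+ and YFP- cells. Cstdc4 was the member among them and was higher in YFP+ cells, which is the difference it was chosen for. Within mice it was higher by 4.68, 2.38 and 1.87. The fitted difference was 2.97 ± 0.44 (SE), given as at least 3.07-fold because the YFP- arrays were below background. Without the array of mouse 23912 it was 2.45, given as at least 2.14-fold. On the 2 slides with both groups it was 2.96 and 3.59. Under normexp it was 1.09, and Cstdc4 was not called under normexp, with the slide as a block, with the mouse as a fixed replicate block, without that array, or without mouse 23547, 23548, 23550, 23551, 23916 or 23917. Without mouse 23917 Stfa2 was called in its place, and with array weights both were. Nothing is read from these calls, since both genes belong to the chosen cluster.

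Csta2 was higher in YFP+ cells only in mouse 23912 by a wide margin (3.73, against 0.10 and -0.49). Of the 6 normal arrays 5 were below background, and the fitted difference of 1.11 ± 0.85 turned to -0.28 without the array of that mouse. Stfa2 was lower in YFP+ cells in 2 of 3 mice (-3.35 and -2.08, against 0.05), with a fitted difference of -1.79 ± 0.45. The YFP+ arrays were below background, and with these set at their lowest signal well above background Stfa2 was lower by 1.27-fold. With the dim YFP- array set in the same way as well, it was lower by 1.67-fold. Cstb and Cst3 had intervals of -0.53 to 0.50 and -0.65 to 0.26 (adjusted p = 0.988 and 0.858, limma). Cst7 differed by 0.92 ± 0.61 (adjusted p = 0.795, limma), and by 0.0002 without the array of mouse 23912.

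The YFP difference itself was compared between tissues, a test that 0.103% of all genes passed, 25 in number. Among the members 1 was called, Cstdc4, whose YFP difference was lower in tumor by 3.66 ± 0.56 (SE) than in normal pancreas as measured. The normal YFP- arrays were below background, and with these set at their lowest signal well above background the value was -2.31, or -1.78 without the array of mouse 23912. Its YFP+ cells were lower than YFP- cells in all 5 tumor mice and higher in all 3 normal mice. Cstdc4 was chosen for differing with tissue and YFP, so no p is given. Under normexp the difference was -1.72, and it was not called there, with the slide or the mouse as a fixed block, or without mouse 23547, 23550, 23551 or 23916.

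Correlations across the 16 arrays describe probes that share sequence, groups and arrays. Csta2 correlated with Cstdc5 at r = 0.963 and with Cstdc4 at r = 0.947, and Cstdc4 with Cstdc5 at r = 0.896. Within groups, after each group's mean was taken away, these were 0.829, 0.800 and 0.858. Csta2 and Stfa2, whose probes share no run of 14 bases, had r = 0.801 over the arrays and -0.264 within groups.

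The genes most like each member over the 16 arrays are given by Pearson r, which also holds the differences between groups. For Csta2 they were Wfdc21, a small secreted protease-inhibitor-like protein (0.980), Spp1, the secreted matrix protein osteopontin (0.973), and AA467197 (0.972). Their r within groups was 0.857, 0.838 and 0.826. For Cstdc4 they were Ero1a, an oxidase of the endoplasmic reticulum (0.971), Srgn, the granule proteoglycan serglycin (0.971), and AA467197 (0.967), with 0.793, 0.318 and 0.528 within groups. Cstdc5 went with ENSMUST00000045078 (0.972), Csta2 (0.963) and Spp1 (0.959), with 0.828, 0.829 and 0.936 within groups. Stfa2 was most like Nectin2 (0.961), Mmp8, the collagenase of neutrophil granules (0.957), and Hbegf, a growth factor (0.950). Within groups these fell to 0.288, 0.655 and 0.560. Stfa3 paired with ENSMUST00000181990 (0.933), Rnf126 (0.925) and Cacng6 (0.920), and Stfa2l1 with Ucp1 (0.914), ENSMUST00000077110 (0.912) and Lbp (0.902). The values within groups were 0.810, 0.701 and 0.716 for Stfa3, and 0.644, 0.765 and 0.642 for Stfa2l1.

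Cstb was most like Slc3a2, an amino acid transporter chain (0.955), Fpr1, a receptor for bacterial peptides (0.951), and Ctsl, the protease cathepsin L that stefins block (0.950). Cst7 was most like Ptgs2, which makes prostaglandins (0.929), Sfxn1 (0.921) and the phosphatase gene Dusp2 (0.910). Cst3 had lower values, with Mbd3 (0.827), Cmtm4 (0.814) and Trdmt1 (0.796). Csta3 went with the probe A_55_P2042833 (0.946), Kcnh4 (0.942) and AK144422 (0.939). For these last 4 members r within groups ran from 0.797 (Cst3 with Mbd3) to 0.947 (Csta3 with Kcnh4). The values for Csta3 also hold the split of its tumor arrays by slide.

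Of the proteases that these inhibitors bind, Ctsk and Ctsl were higher in tumor in both populations. All 11 cystatin targets were tested, with a median difference between tissues of 0.19 in YFP+ and 0.26 in YFP- cells. In YFP+ cells 2 of the 11 were higher in tumor and 0 lower, and in YFP- cells 3 were higher and 1 lower. The share called over all genes was 12.1% and 15.8%, and nothing is read from the counts. Ctsk, the collagen-degrading cathepsin best known from osteoclasts, was higher by 7.92 ± 0.99 (SE) in YFP+ (adjusted p = 1.03e-04, limma) and by 5.61 ± 0.99 in YFP- cells (adjusted p = 0.00135); 3 of the 6 normal arrays were above background. Ctsl was higher by 2.07 ± 0.39 (adjusted p = 0.00264, limma) and 1.76 ± 0.39 (adjusted p = 0.00697).

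In YFP- cells Ctsz, a carboxypeptidase of macrophage lysosomes, was higher in tumor by 0.55 ± 0.15 (adjusted p = 0.0245, limma). Ctsf was lower by 1.28 ± 0.38 (adjusted p = 0.0352). The other targets, among them Ctsb, Ctss, Ctsc, the protease that activates granule serine proteases, and Lgmn (legumain), did not pass. Between YFP+ and YFP- cells 0 of the 11 passed in either tissue (limma), with differences of -0.68 to 0.52 in tumor and -1.79 to 0.36 in normal pancreas. Over all genes 2.39% passed in tumor and 0.0206% in normal pancreas.

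Other lysosomal proteases, which cystatins do not inhibit, were mixed. Of 8 tested, 2 were higher and 1 lower in tumor YFP+, and 3 higher and 1 lower in tumor YFP- cells, beside 12.1% and 15.8% of all genes. Ctse, an aspartic protease, was higher by at least 3.31-fold in YFP+ cells and by 4.91 ± 0.61 (SE) on the log2 scale in YFP- cells. Napsa, another aspartic protease, was higher by 1.19 ± 0.36 and 2.14 ± 0.36, and Ctsd, the aspartic cathepsin of most lysosomes, by 1.22 ± 0.31 in YFP- cells. Ctsa, a serine carboxypeptidase, was lower by 1.46 ± 0.18 in YFP+ and 1.27 ± 0.18 in YFP- cells.

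Among other protease inhibitors of leukocytes, 8 of 9 were tested. In YFP+ cells 2 were higher and 2 lower in tumor, and in YFP- cells 2 were higher and 0 lower, beside 12.1% and 15.8% of all genes. Slpi, a secreted inhibitor of neutrophil elastase, was higher by 5.24 ± 0.50 (SE) in YFP+ (adjusted p = 8.38e-06, limma) and by 6.04 ± 0.50 in YFP- cells (adjusted p = 1.70e-06). Serpinb2, which blocks plasminogen activators, was below background on all normal arrays and higher in tumor by at least 1.48-fold and 2.18-fold. Serpinb1a, an inhibitor of neutrophil serine proteases, was lower in tumor YFP+ cells than in normal YFP+ cells by 1.72 ± 0.36 and than in tumor YFP- cells by 1.53 ± 0.31. Serpinb6a was lower in tumor YFP+ cells by 1.5 ± 0.37. Of the 14 other cystatin superfamily genes, such as the fetuins and kininogens, 6 passed the filter and 0 were called in any of the 5 comparisons (limma).

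Some markers of neutrophils, cells in which stefin A genes are well known, were higher in tumor samples. Of 18 listed, 17 were tested (Ly6g has no probe of that name), and in YFP+ cells 6 were higher and 1 lower in tumor, in YFP- cells 8 higher and 0 lower, beside 12.1% and 15.8% of all genes. The mean level of the 17 on tumor arrays was -0.57 to 0.11 (YFP+) and -0.01 to 1.12 (YFP-), and on normal arrays -2.32 to -0.24 (YFP+) and -2.28 to -1.58 (YFP-). S100a8 was higher in tumor by 3.52 ± 1.09 (SE) in YFP+ and by 6.45 ± 1.09 in YFP- cells, and S100a9 by 4.56 ± 1.12 and 7.21 ± 1.12. The values in YFP+ cells include the normal array of mouse 23912 and are not given without it. On that array S100a8 was -0.35, against -4.11 and -7.16 on the others of its group, and S100a9 1.18, against -2.63 and -6.68. Retnlg, a secreted protein of neutrophils, was higher by 3.77 ± 0.58 and 6.04 ± 0.58, and Mmp8 by at least 20.1-fold in YFP+ cells and 4.22 ± 0.51 in YFP- cells. Ltf, the granule protein lactoferrin, was lower in tumor YFP+ than in tumor YFP- cells by 1.30 ± 0.28, the direction Cstdc4 and Stfa2 had within mice. It was the 1 marker of the 17 that passed between the tumor populations, beside 2.39% of all genes. The differences of the 17 had a median of -0.86 and ran from -1.87 to 0.54. Cebpe, a transcription factor of granulocytes, was lower in tumor YFP+ than in normal YFP+ cells by 1.25 ± 0.35. Csta2 in normal pancreas was above background only on the array of mouse 23912, which had the highest neutrophil marker mean of the normal arrays (-0.24). The part of neutrophil RNA in the stefin A values was not tested.

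**Figure D4:**
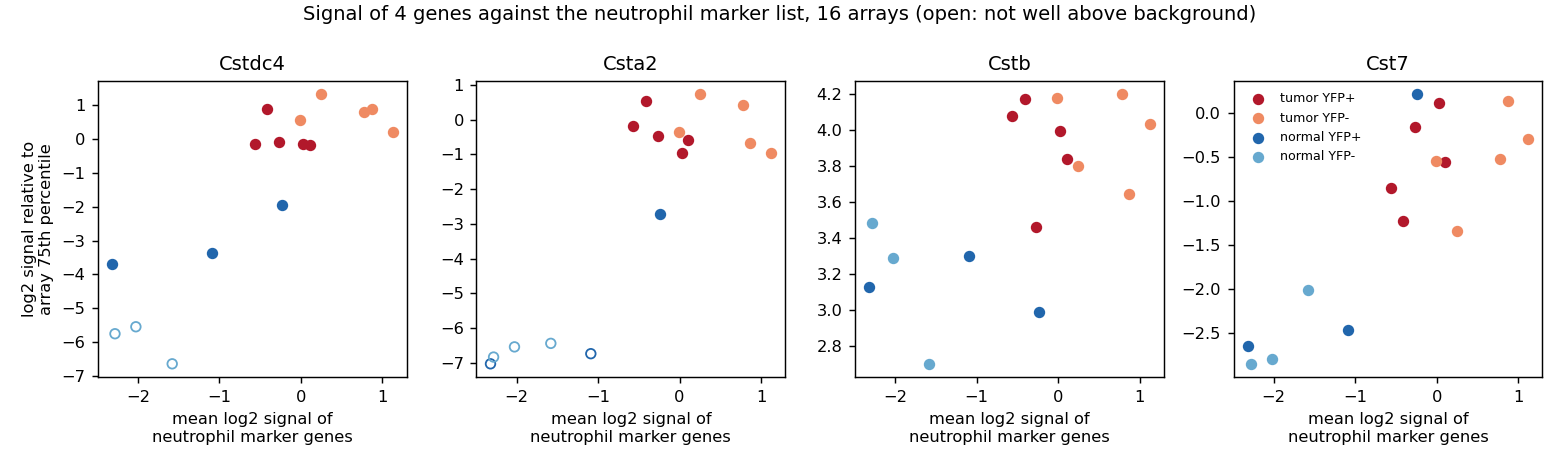
Log2 signal relative to the array's 75th percentile of Cstdc4, Csta2, Cstb and Cst7 (y axes) against the mean log2 signal of 17 neutrophil markers (x axes), with 1 point per array coloured by group and open where not well above background. The normal YFP+ array of mouse 23912, at -0.24 on the x axis, lies above the other normal arrays in Cstdc4 (-1.96), Csta2 (-2.72) and Cst7 (0.21), and not in Cstb (2.99).

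Epithelial markers, which can accompany stefin A in squamous cells, had array means in tumor of -2.53 to -1.60 (YFP+) and -1.14 to -0.55 (YFP-), and in normal pancreas of -4.08 to -3.43 (YFP+) and -3.31 to -2.93 (YFP-). Of the 10 tested 4 were higher in tumor in YFP+ and 6 in YFP- cells, and 4 were lower in tumor YFP+ than in tumor YFP- cells. The shares called over all genes were 12.1% and 15.8% between tissues and 2.39% between the tumor populations. Fibroblast markers were lower in tumor YFP+ than in tumor YFP- cells in 9 of 9, the direction that Cstdc4, Cstdc5 and Stfa2 had within mice. In normal pancreas these markers also had lower values in YFP+ cells (-2.42 to -0.64), and 0 of 9 passed. There the differences within mice were 1.87 to 4.68 for Cstdc4, -2.93 to 2.10 for Cstdc5 and -3.35 to 0.05 for Stfa2. The part of these cells in the stefin A values was not tested. Of 11 dendritic cell markers 0 and of 6 B cell markers 1, higher in YFP+, passed between the tumor populations. T and NK cell markers had means of -2.20 to -1.76, -2.21 to -0.80, -2.49 to 0.32 and -3.11 to -1.66 in the same order.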

How the data were processed

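Macrophages of 4 groups were measured on 16 one-colour Agilent arrays, 4 on each of 4 slides. Spot intensity was read in red only and is deposited background subtracted, per the file headers, from Agilent Feature Extraction 11.5.1.1 per the submitters' processing notes. The deposited log2 values of the series matrix were an alternative. Outlier spots were left out, spots of a probe averaged on the log2 scale, and each array's 75th percentile subtracted. Probes were kept if 3 of the 16 arrays or more were well above background, and the brightest probe stood for a gene (24275 genes). Means of the 4 groups were fitted with limma 3.58.1 (R 4.3.3), and two-sided p-values were adjusted (Benjamini-Hochberg) across the genes tested, with a threshold of 0.05. The fit was tested on simulated data. The number of arrays limits the precision. Genes were named through RefSeq accessions. The members, lists and tests were chosen with earlier results of these data known. Named are all members, the 3 genes most like each by Pearson r, and list members past the threshold, at most 6 a list and comparison. Alternatives were other background correction, normalization, filters, blocks, weights and probe rules, the deposited values, and leaving out each mouse. Leaving out the normal YFP+ array of mouse 23912 was chosen after seeing the data. Probe sequences come from the scanner files and promoters from RefSeq.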

Additional observations from a re-analysis of the deposited data

Results flagged for a closer look

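In tumor YFP+ samples the array of mouse 23677 stood apart from the others of its group in Cstdc4, at 0.88 with the nearest array at -0.09, and in Cstdc5, at 0.39 with the nearest at -0.33. In the same group the Stfa3 level of mouse 23548 was -2.98, and the nearest was -2.10. That array was on slide 1, where the tumor YFP- arrays read -2.83 and -2.77. On slides 2, 3 and 4 the tumor YFP- arrays read -2.82, -1.27 and -1.77. The normal YFP+ array of slide 1 read -3.79, the highest of its group. The part of the slide was not tested. Groups of 5 arrays were tested for such a gap, 20 in all over the 10 genes, and chance flags about 1 in 20.

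The YFP difference of Cstdc4 differed between tissues by -3.66 on the log2 scale as measured, lower in tumor. The normal YFP- arrays were below background, and with these set at their lowest signal well above background the value was -2.31. Cstdc4 was chosen for this pattern, so the value is a description.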

How the results depend on the processing

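The count of stefins and cystatins called between YFP+ and YFP- cells of normal pancreas was 1, and became 2 with array weights and 0 with the mouse as a fixed replicate block, with normexp and with the slide as a block. The count for the difference between tissues was 1, and became 0 with the same replicate block, normexp and the slide block. In tumor it was 0, and 1 with normexp. With arrays left out these counts ran from 0 to 1 in normal pancreas, from 0 to 1 for the difference between tissues and from 0 to 0 in tumor; the tissue counts ran from 5 to 7 in YFP+ and from 4 to 9 in YFP- cells. The numbers did not pair the samples throughout: same-number correlations ran from -0.29 to 0.31, and the consensus correlation was 0.0283. Signs turned for small differences. Cst3 between tissues in YFP+ cells became -0.053 with quantile normalization and with the deposited values. Cst7 between tumor populations became 0.029, 0.023 and 0.042 with quantile normalization, the deposited values and the slide block, and ran from -0.13 to 0.055 with arrays left out. Cstb in normal pancreas became 0.044 with normexp and 0.032 with the slide block, and ran from -0.17 to 0.064 with arrays left out, and in tumor from -0.17 to 0.0085. Csta2 in normal pancreas ran from -0.28 to 1.91. The causes were not tested.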
